A study of Mus musculus with 8 samples.

Results

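The genes of the outer dense fibers and the tektins, structural proteins of the sperm tail, were followed from spermatocytes to spermatids. The members were the 9 genes whose symbol in the deposited gene table was Odf1, Odf2, Odf3, Odf4, Tekt1, Tekt2, Tekt3, Tekt4 or Tekt5, out of 56324 gene models. These symbols stood on 11 models, since Odf2 named 3, and the model of Odf2 with the highest mean was used. RNA sequencing gave 4 spermatocyte and 4 spermatid libraries, all from C57BL/6 males of 12 weeks labelled Sam68 -/-, a knockout of the RNA-binding protein Sam68, so that both cell types carried the same deletion. Sam68+/+ libraries were not analysed here, and no effect of genotype could be read. The cells had been separated by sedimentation, and the labels do not say whether animals were pooled or whether each library is from another animal. The p-values below therefore measure only the spread between these libraries, which may be technical.

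Outer dense fibers are stiff rods that run along the doublet microtubules of the sperm tail and protect it against shear. Odf1 and Odf2 encode their main proteins, while Odf3 and Odf4 encode a microtubule-associated protein and a membrane protein of the tail. Tektins are coiled-coil proteins that form filaments inside the doublet microtubules of cilia and flagella, and mice that lack Tekt2 have sperm with poor motility. Spermatids build the tail after meiosis, and genes for it are known to be switched on at different times between late meiosis and spermatid elongation.

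Promoters of 8 of the 9 genes were found in the RefSeq table of the GRCm38.p6 build. The stretches below show genes of unlike behaviour, each read 5′ to 3′ on the strand of its gene and ending at the base before the RefSeq start site. Tekt2 had the largest rise among the tektins, Tekt1 the smallest rise, and Odf4 did not pass the test. Capitals mark matches, on either strand, to GTTGCC (part of the X-box bound by RFX factors), TGACG (part of the cyclic AMP response element), CCAAT or GGGCGG (a GC box).
Tekt2, chr4:126325689-126325938, minus strand: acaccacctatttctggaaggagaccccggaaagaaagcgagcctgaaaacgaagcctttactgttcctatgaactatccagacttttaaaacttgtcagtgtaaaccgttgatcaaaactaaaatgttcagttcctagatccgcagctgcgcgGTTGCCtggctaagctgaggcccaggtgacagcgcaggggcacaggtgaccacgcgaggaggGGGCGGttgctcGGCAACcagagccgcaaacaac
Tekt1, chr11:72361883-72362132, minus strand: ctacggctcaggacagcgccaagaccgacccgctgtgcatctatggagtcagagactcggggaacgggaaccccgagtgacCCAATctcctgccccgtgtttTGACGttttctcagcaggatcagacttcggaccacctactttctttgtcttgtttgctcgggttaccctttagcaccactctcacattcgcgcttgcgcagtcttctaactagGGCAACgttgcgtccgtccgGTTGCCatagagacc
Odf4, chr11:68927082-68927331, minus strand: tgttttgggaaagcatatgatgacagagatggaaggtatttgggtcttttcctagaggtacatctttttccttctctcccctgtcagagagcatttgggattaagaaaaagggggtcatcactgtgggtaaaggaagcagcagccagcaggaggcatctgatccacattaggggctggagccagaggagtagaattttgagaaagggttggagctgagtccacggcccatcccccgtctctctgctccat
The Tekt1 stretch lies inside the deposited Tekt1 model, which reaches to base 72362443. GTTGCC began at positions -96 and -22 from the Tekt2 start and at -35 and -15 from the Tekt1 start. The 8 genes had 14 windows from 250 bases before to 50 bases after a start, since some have several starts, whose windows can overlap. GTTGCC was in 5 of these 14 windows (of Odf3, Tekt1, Tekt2 and Tekt4), and 12.5% of all 32851 windows held it. The Tekt2 windows that held it, from starts at 126325688 and 126325646, shared the same matches. The Odf3 match, at -65 from the start at 140847916, lies inside the deposited Odf3 model, which begins at base 140847805. The Tekt4 match began at position 8, after the start. TGACG was in 4 of the 14 (of Odf2 and Tekt1), against 20.8% of all windows. CCAAT was in 5 (of Odf2, Tekt1 and Tekt3), against 37.4%, and GGGCGG in 5 (of Odf2 and Tekt2), against 35.7%. A TATA box (TATAAA) was in 0 of the 14 member windows, against 13.6% of all windows. An E-box (CACGTG) was in 0, against 7.15%, and the full palindromic cyclic AMP response element, which holds TGACG, in 0, against 1.79%. A match is a description of letters only.

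Values are normalized counts, that is, reads on a gene model after division by the library's size factor. Summed over all gene models, reads recovered from the deposited values lay between 49000266 and 93975960 per library. Members had between 293 and 463794 such reads in a library. All 9 genes passed the filter on low values, and the lowest value of any of them in any library was 335 normalized counts. A gene was called at an adjusted p below 0.05 in limma (Benjamini-Hochberg over all 28735 models tested) with a log2 fold change, spermatids over spermatocytes, of 1 or more in size. In bulk samples, fewer cells of a type and less RNA per cell cannot be told apart.

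RNA of 8 of the 9 genes was higher in spermatids, that of 0 was lower, and Odf4 alone was not called. Of all models tested, 32.5% were called higher and 29.8% lower. The same 8 genes had every spermatid library above every spermatocyte library, which 34.2% of all models tested also showed. The log2 fold changes ran from 1.12 for Tekt1 to 5.21 for Odf3 among the called genes. The median over the 9 genes was 1.46, beside -0.01 over all models tested. With libraries scaled to equal total reads, or with quantile normalization, 5 of the 9 were called in each case (27.8% and 29.1% of all models were then called higher), and with a correction for GC content 6 were (29.2%). The edgeR and DESeq2 fits on recovered reads called 8 of the 9 higher, as they did 32.3% and 32.1% of all models.

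**Figure D1:**
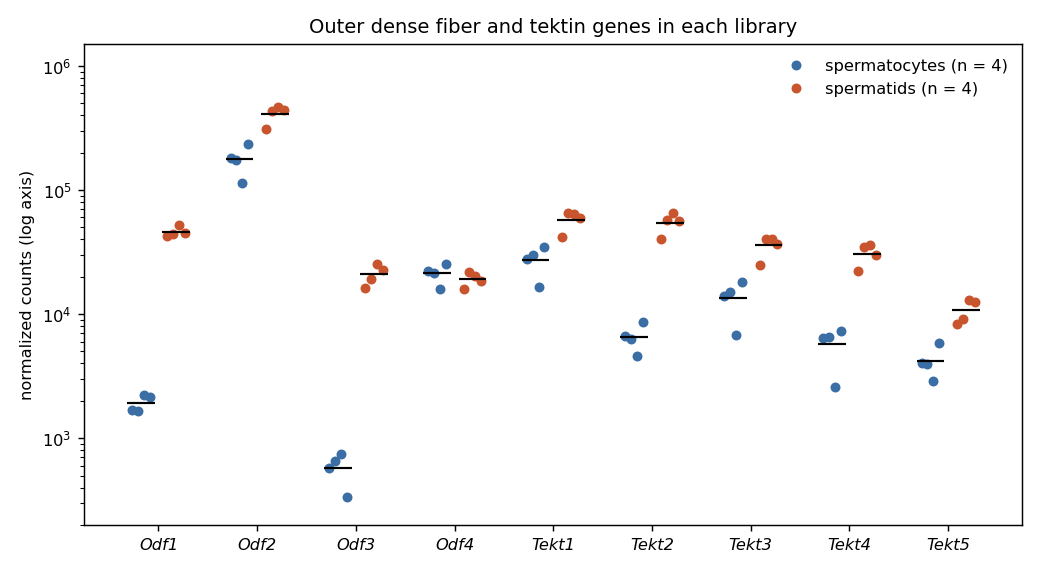
Normalized counts (log axis) of each gene in the 4 spermatocyte and the 4 spermatid libraries, with each point a library and each line a group mean. Odf1 and Odf3 show the widest gaps between cell types, Odf2 is the highest in both, and the groups overlap only for Odf4.

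Odf1 encodes a cysteine-rich, small heat shock-like protein of the fibers that is also needed to hold the sperm head on the tail. The Odf1 model lies on chromosome 15 from 38219200 to 38226735 of mm10. Spermatocyte libraries 1 to 4 had 1694, 1664, 2227 and 2152 normalized counts of Odf1, and spermatid libraries 1 to 4 had 42906, 44530, 51824 and 45037. The lowest spermatid library was 19.3 times the highest spermatocyte library. The mean rose from 1934 ± 297 to 46074 ± 3939 (SD over 4 libraries each), or 4.58 ± 0.17 as a log2 fold change with its SE (adjusted p = 9.8e-10 in limma).

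Odf2 encodes the other main fiber protein, and products of the same gene, the cenexins, sit on the appendages of the mother centriole in many cell types. Its model lies on chromosome 2 from 29889720 to 29931745. Odf2 was already abundant in spermatocytes, with 181782, 173685, 112797 and 236020 normalized counts in libraries 1 to 4, and spermatids had 311957, 433424, 465242 and 438384. By normalized counts, which do not allow for length, it ranked 9 among 23871 named genes in spermatocytes and 2 in spermatids. Odf2 took between 0.206% and 0.381% of all deposited counts of a spermatocyte library and between 0.456% and 0.515% of a spermatid library. The groups did not overlap, and the lowest spermatid library was 1.32 times the highest spermatocyte library. The rise of Odf2, from 176071 ± 50451 to 412252 ± 68308 (SD, n = 4 each), had a log2 fold change of 1.26 ± 0.23 SE (limma adjusted p = 3.6e-04). It was not called with equal total reads (0.82) or after a correction for GC content (0.92).

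The reads behind Odf2 cover all transcripts of its main model, so fiber and centriole forms were not separated. The other 2 models named Odf2 were low: one from 29793679 to 29896014 had 59.8 ± 18.3 normalized counts in spermatocytes and 68.2 ± 24.7 in the spermatid group (SD, n = 4), and one from 29911363 to 29912070 had 164 ± 22.7 and 206 ± 47.1. Neither was called (limma adjusted p = 0.66 and 0.28). Models without a symbol also overlapped the main model. One of them, from 29900450 to 29903465, went from 5675 ± 1399 to 13601 ± 1703 (SD over 4 libraries each), or 1.29 ± 0.21 as a log2 fold change with its SE (adjusted p = 1.4e-04 in limma). How reads in overlapping models were assigned is not given in the sources used here.

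Odf3 encodes a protein of the microtubule-associated family with short repeats that was first described in elongating spermatids. The Odf3 model lies on chromosome 7 from 140847805 to 140851014. Odf3 was the least abundant member in spermatocytes, with 578, 650, 745 and 335 normalized counts in libraries 1 to 4. Spermatid libraries had 16243, 19094, 25374 and 22761. All spermatid libraries were far above the spermatocyte libraries, by at least 21.8 times. The mean of Odf3 went from 577 ± 175 to 20868 ± 4017 (SD, n = 4 each), and its log2 fold change of 5.21 ± 0.25 SE was the largest of the 9 genes (limma adjusted p = 4.3e-09).

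Odf4, which encodes a membrane protein of the sperm tail, was high in both cell types. The model lies on chromosome 11 from 68921836 to 68927081. Spermatocytes had 22383, 21295, 16040 and 25181 normalized counts of Odf4 and spermatids 15780, 21881, 20426 and 18545. The groups overlapped, and the means were 21225 ± 3824 and 19158 ± 2633 (SD over 4 libraries each), or -0.14 ± 0.19 as a log2 fold change with its SE (adjusted p = 0.51 in limma). With equal total reads the value was -0.58 (limma adjusted p = 0.0017) and with quantile normalization -0.70 (limma adjusted p = 1.2e-04), both short of the fold threshold. Medians over all models tested were then -0.44 and -0.36, beside -0.01 as deposited. As CPM, with each library's deposited values scaled to the same sum, Odf4 had 293 to 407 in spermatocytes and 218 to 249 in spermatids, and these ranges did not overlap. The share of all models whose ranges separate as CPM was not counted.

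All 5 tektin genes were called higher in spermatids, with log2 fold changes from 1.12 to 3.07. Tekt2 rose most. Its model lies on chromosome 4 from 126322117 to 126325204, with 6687, 6351, 4581 and 8555 normalized counts in spermatocyte libraries 1 to 4 and 40057, 56958, 64617 and 56579 in spermatids. The lowest spermatid library was 4.68 times the highest spermatocyte library. The mean went from 6543 ± 1628 to 54553 ± 10349 (SD over 4 libraries each), or 3.07 ± 0.22 as a log2 fold change with its SE (adjusted p = 1.2e-07 in limma). Gm12945, a transcript on the opposite strand by GENCODE, overlaps the Tekt2 model and rose with it, from 1967 ± 386 to 15270 ± 3390 (SD over 4 libraries each), or 2.95 ± 0.21 as a log2 fold change with its SE (adjusted p = 1.4e-07 in limma). Gm12945 stood at 25.9% to 33.7% of Tekt2 in every library. The strand setting of the counting is not given in the sources used here, so reads of this pair cannot be told apart.

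Tekt4, on chromosome 17 from 25471588 to 25476594, encodes a tektin of the sperm tail whose loss impairs sperm motility in mice. Tekt4 had 6388, 6505, 2561 and 7347 normalized counts in spermatocyte libraries and 22238, 34538, 35981 and 30183 in spermatid libraries. No spermatid library fell below 3.03 times the highest spermatocyte library. Its mean rose from 5700 ± 2136 to 30735 ± 6178 (SD over 4 libraries each), or 2.51 ± 0.31 as a log2 fold change with its SE (adjusted p = 1.2e-05 in limma).

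Tekt1, Tekt3 and Tekt5 rose less, and Tekt1 and Tekt3 were already high in spermatocytes. Tekt1, on chromosome 11 from 72344721 to 72362443, had 27874, 29670, 16413 and 34892 normalized counts in spermatocyte libraries and 41839, 65708, 63844 and 59535 in spermatid libraries. The Tekt1 groups were the closest of the called genes, at 1.2 times between the lowest spermatid and the highest spermatocyte library. Its mean went from 27212 ± 7790 to 57731 ± 10906 (SD over 4 libraries each), or 1.12 ± 0.24 as a log2 fold change with its SE (adjusted p = 0.0012 in limma). Tekt1 was not called with equal total reads (0.68), quantile normalization (0.60), the GC correction (0.78), without spermatocyte library 3 (0.89) or without spermatocyte libraries 3 and 4 (0.98). Tekt3, also on chromosome 11, from 63061658 to 63094960, had 14092, 15027, 6837 and 18256 in spermatocytes and 24957, 40605, 40554 and 36590 in spermatids. Its mean rose from 13553 ± 4820 to 35676 ± 7390 (SD over 4 libraries each), or 1.46 ± 0.29 as a log2 fold change with its SE (adjusted p = 5.8e-04 in limma), and it was not called with quantile normalization (0.90). Tekt5, on chromosome 16 from 10357952 to 10395465, had the fewest counts of the tektins, with 4035, 3922, 2872 and 5882 in spermatocytes and 8306, 9166, 13094 and 12443 in spermatids. Its mean rose from 4178 ± 1251 to 10752 ± 2369 (SD over 4 libraries each), or 1.38 ± 0.24 as a log2 fold change with its SE (adjusted p = 1.9e-04 in limma), and it was not called with equal total reads (0.95) or quantile normalization (0.88).

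**Figure D2:**
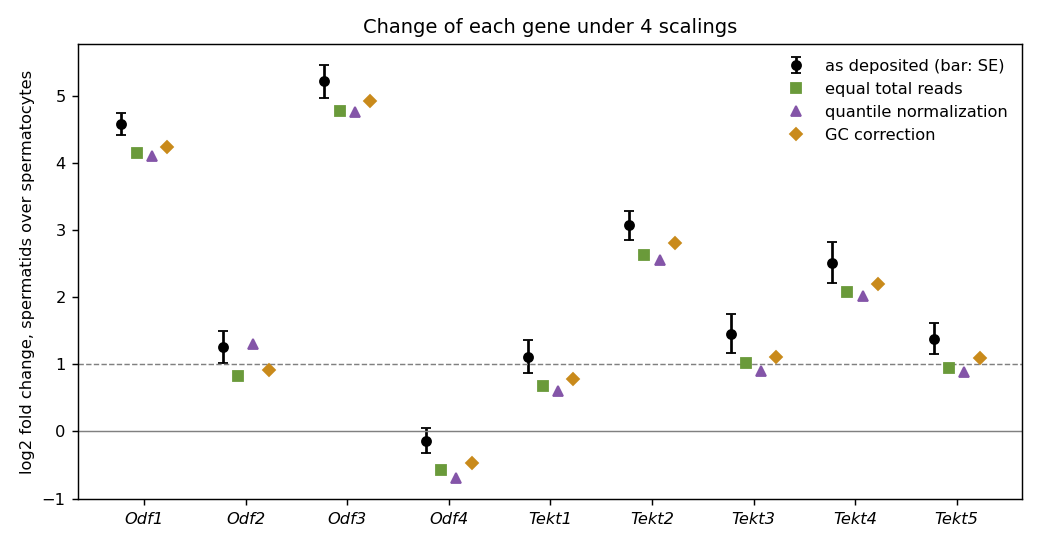
Log2 fold change of each gene, spermatids over spermatocytes, as deposited with its SE and under 3 other scalings, with the fold threshold of 1 as a dashed line. Odf1, Odf3, Tekt2 and Tekt4 stay above the threshold under each scaling shown, while Odf2, Tekt1, Tekt3 and Tekt5 lie near it and Odf4 lies below 0.

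Whether the members changed by different amounts was tested on the log2 ratio of each pair within a library, which a single scaling factor per library leaves as it is, though quantile normalization does not. Of 36 pairs, 29 differed between cell types (exact two-sided permutation test, adjusted p = 0.035 each over the 36 pairs, n = 4 each; the smallest p the design allows is 0.0286). Pairs of other genes were not tested, so no background share stands beside this count. Over all models tested, 32.5% were called higher and 29.8% lower, so pairs of unrelated genes can differ too. The 7 pairs that did not pass were Odf1 with Odf3, Tekt2 with Tekt4, Odf2 with Tekt1, Tekt3 and Tekt5, and Tekt5 with Tekt1 and Tekt3. Odf1 and Odf3 each differed from all of the tektins, from Odf2 and from Odf4. The log2 ratio of Odf1 to Odf2, the main fiber proteins, went from -6.47 ± 0.54 to -3.15 ± 0.20 (SD, n = 4 each). The ratio of Odf1 to Odf3 was 1.79 ± 0.60 and 1.16 ± 0.19 (exact permutation adjusted p = 0.066). Odf2 and Tekt1 kept close ratios, at 2.70 ± 0.10 in spermatocytes and 2.84 ± 0.08 in spermatids (exact permutation adjusted p = 0.096), although both varied among libraries. The ratio of Tekt1 to Tekt2 went from 2.04 ± 0.16 to 0.08 ± 0.09. That of Tekt1 to Tekt3 went from 1.04 ± 0.15 to 0.70 ± 0.04, the smallest difference among the pairs that passed.

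Levels of different genes were compared as normalized counts per kilobase of the longest GENCODE transcript, since the deposited table gives no lengths. In spermatocytes the order was Odf2 (41033 ± 11757 per kilobase), Tekt1 (18806 ± 5384), Odf4 (18766 ± 3381), Tekt3 (7753 ± 2757), Tekt2 (4244 ± 1056), Tekt4 (3711 ± 1391), Tekt5 (2317 ± 694), Odf1 (1751 ± 268) and Odf3 (354 ± 108), each SD with n = 4. Library ranges overlapped between neighbours in this order except between Odf2 and Tekt1, Odf4 and Tekt3, and Odf1 and Odf3. In spermatids the order per kilobase was Odf2 (96074 ± 15919), Odf1 (41696 ± 3565), Tekt1 (39897 ± 7537), Tekt2 (35378 ± 6712), Tekt3 (20410 ± 4227), Tekt4 (20010 ± 4022), Odf4 (16939 ± 2328), Odf3 (12810 ± 2466) and Tekt5 (5963 ± 1314). Odf1 thus stood near the bottom of the order in spermatocytes and next to Odf2 in spermatids. Ranges of neighbours overlapped in spermatids except between Odf2 and Odf1, Tekt2 and Tekt3, and Odf3 and Tekt5. Ranges do not pair genes within a library, so neighbours that overlap can still keep their order. Per kilobase, Tekt3 was above Tekt2, and Tekt4 above Tekt5, in each spermatocyte library, while Tekt2 and Tekt4 changed places. Tekt1 was above Tekt2 in each spermatid library, while Tekt3 and Tekt4 changed places. The place of Odf2 depends on its length: per kilobase of all its exons merged, it had 17751 in spermatocytes, beside 18203 for Odf4 and 16777 for Tekt1, and 41562 in spermatids, beside 41696 for Odf1.

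Within each family the mix of transcripts differed between cell types. Tekt1 made up 51.3% ± 1.2 of the summed tektin level per kilobase in spermatocytes but 32.8% ± 1.0 in spermatids (SD over 4 libraries). Tekt2 went from 11.8% ± 1.5 to 29.1% ± 0.95, and Tekt4 from 9.83% ± 1.4 to 16.4% ± 0.54. Tekt3 went from 20.7% ± 1.7 to 16.7% ± 0.53, and Tekt5 from 6.39% ± 0.87 to 4.93% ± 0.76. Tekt1 and Tekt2 thus stood far apart in spermatocytes and close together in spermatids. Among the 4 outer dense fiber genes, Odf1 went from 3.0% ± 1.1 to 25.1% ± 2.5 and Odf3 from 0.632% ± 0.33 to 7.62% ± 0.66. Odf4 went from 30.7% ± 2.0 to 10.1% ± 0.82 and Odf2 from 65.7% ± 3.3 to 57.2% ± 2.4. Each share differed between cell types (exact two-sided permutation adjusted p = 0.032 over 9 shares, n = 4 each) except that of Tekt5 (adjusted p = 0.057). Shares within a family sum to 100%, so they are not independent. Shares within other gene families were not tested, so this count has no background beside it. The order within the outer dense fiber genes depends on the length used. With merged exon lengths, Odf4 went from 48.2% ± 1.9 to 14.98% ± 1.2 and Odf2 from 46.2% ± 3.6 to 37.7% ± 2.3, while Odf1 went from 4.83% ± 1.7 to 38.2% ± 2.9 (SD over 4 libraries). Odf4 and Odf2 then had the larger shares in spermatocytes, and Odf1 and Odf2 in spermatids.

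**Figure D3:**
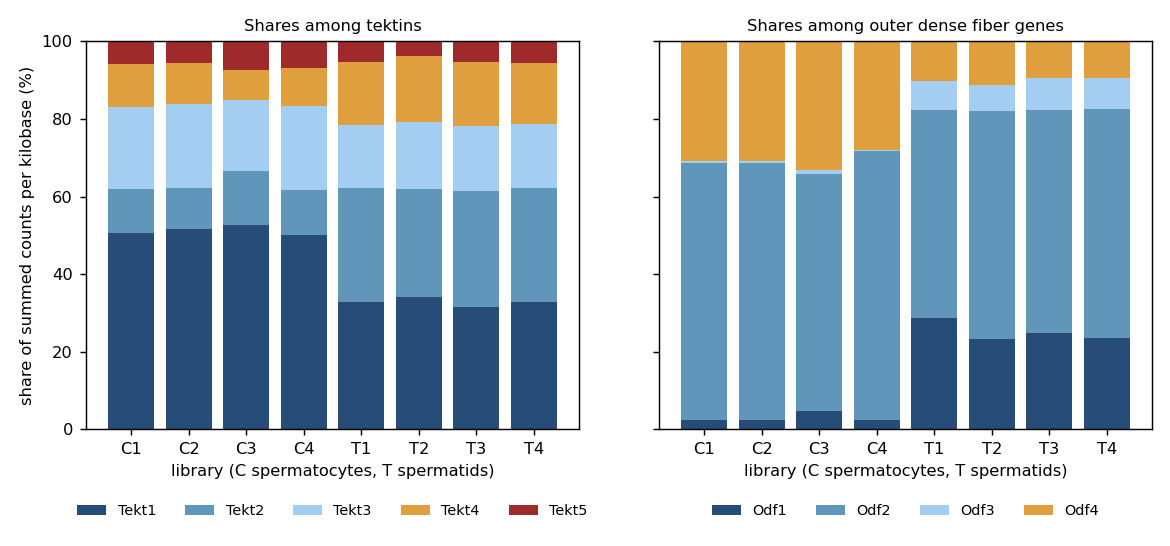
Share (%) of each gene in the summed normalized counts per kilobase of its family, in spermatocyte libraries C1 to C4 and spermatid libraries T1 to T4. The Tekt1 segment shrinks from 51.3% to 32.8% on average and the Odf1 segment grows from 3.0% to 25.1%.

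Members also varied among libraries of a cell type, with coefficients of variation from 15.3% (Odf1) to 37.5% (Tekt4) in spermatocytes and from 8.55% (Odf1) to 22.0% (Tekt5) in spermatids. Spermatocyte library 3 was the lowest and library 4 the highest for 7 of the 9 genes, namely Odf2, Odf4 and the 5 tektins, also as CPM. Odf1 and Odf3 were instead highest in spermatocyte library 3. In spermatids, library 1 was the lowest for all 9 genes as deposited, and for 5 of them as CPM. The deposited values of spermatid library 1 sum to the least among the spermatid libraries.

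Markers of the cells a fraction may hold were checked in the same libraries. The 8 spermatid markers were all called higher in spermatids, with a median log2 fold change of 4.33. Their mean log2 level was 10.53, 10.16, 10.69 and 10.47 in spermatocyte libraries 1 to 4 and 15.06 to 15.32 in spermatids. Spermatocyte library 3, highest for Odf1 and Odf3, thus had the highest level of this list. Library 2 had the lowest level, as it did for Odf1, while Odf3 was lowest in library 4. How much spermatid RNA the spermatocyte libraries held was not tested. Of 9 spermatocyte markers, 2 (Piwil1 and Tdrd5) were called lower and 7 were not called, so these markers separate the fractions less. The uncalled went both ways. Adam3 (log2 fold change 0.69), Meiob (0.53), Sycp1 (0.10) and Hspa2 (0.01) were positive. Sycp3 (-0.86), Ccna1 (-0.12) and Ybx2 (-0.05) were negative. The mean log2 level of the 9 spermatocyte markers was 14.80, 14.94, 14.75 and 14.11 in spermatocyte libraries 1 to 4. Library 4, highest for 7 members, thus had the lowest level of this list among them. In spermatids the level was 13.51 to 13.74. Sertoli cell markers were lower in spermatids in 10 of 10 cases, with mean log2 levels of 9.18, 9.80, 11.34 and 10.14 in spermatocyte libraries 1 to 4 and of 5.79 to 7.04 in spermatid libraries, so that library 3, lowest for 7 members, had the highest level of this list. Of the Leydig cell markers 5 of 5 were lower (summed levels 3734 to 7645 and 205 to 1301 normalized counts). Spermatogonial markers were higher in 4 of 7 cases (summed levels 853 to 1985 and 2269 to 5015), with mean log2 levels of 6.49, 5.72, 6.92 and 7.33 in spermatocyte libraries 1 to 4. Higher in spermatids were also myoid markers in 2 of 3 (542 to 1059 and 740 to 1634), and macrophage and blood markers in 5 of 6 tested (124 to 142 and 1800 to 4207), with Hbb-bt at or under 3 reads in each library. Tektins are also known from ciliated epithelium, whose markers were higher in 3 of 5 tested cases (1801 to 3041 and 7844 to 11109). These were Foxj1, Ccno and Krt18, and Krt18 had a spermatid mean of 38.8 normalized counts. Epcam (log2 fold change 0.79) and Krt8, which went the other way (-0.89), were not called. Foxj1 made up most of the spermatid sum (6956 ± 1390, SD, n = 4). The part of other cells in the values of the 9 genes was not tested. Without spermatocyte libraries 3 and 4, Odf1 was at 4.77, Odf3 at 5.07, Tekt2 at 3.04 and Tekt4 at 2.23.

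Other genes of the same structures were read from lists. Genes listed for the fibrous sheath, the scaffold around the fibers, were higher in spermatids in 12 of 18 cases and lower in 0. Their median log2 fold change was 4.06. The list was broad and also held genes that do not encode scaffold proteins, such as Calr3 (4.79, called higher), Ldha and Ldhc (not called). Akap14, an anchoring protein gene on the X chromosome, rose by 5.37 and Cabyr, a calcium-binding protein, by 5.36. Genes for head-tail coupling, in which Odf1 takes part, were higher in 14 of 20 cases and lower in 2 (median 2.94). Sun5, which anchors the tail at the nucleus, rose by 5.39 and Spag4, a partner of Odf1, by 5.09, while the centrosomal genes Cntrob and Cntln fell by 3.0 and 1.42. Other ODF-named and ODF-binding genes were higher in 7 of 13 tested cases and lower in 1 (median 2.02). Odf3l1, a relative of Odf3, rose by 5.31 and the kinase gene Tssk4 by 5.10, and Cdk5 fell by 1.21. Cdk5 was not called without spermatid library 2, without spermatocyte library 3 or without spermatocyte library 4. Odf2l, a relative of Odf2, was not called (3274 ± 339 and 2509 ± 225, SD, n = 4 each).

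Genes for proteins inside the doublet microtubules, where tektins sit, were higher in 18 of 29 matched cases and lower in 0 (median 1.77). Efhc2, on the X chromosome, rose by 5.41 and Saxo1, listed under its older symbol Fam154a, by 5.26. Mns1 (log2 fold change 0.07) and the model of Cfap52 (-0.08) were among the 11 that were not called, and both of these were chosen after their values were seen. Genes of the centriole appendages, where Odf2 products also sit, were higher in 7 of 21 cases and lower in 5 (median 0.18). Ofd1 rose by 3.37 and Sclt1 by 2.41, while Tchp, whose product binds Odf2, fell by 3.19 and Ninl by 2.69. These shares stand beside the 32.5% called higher and 29.8% called lower over all models tested, and the lists were not tested as sets.

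**Figure D4:**
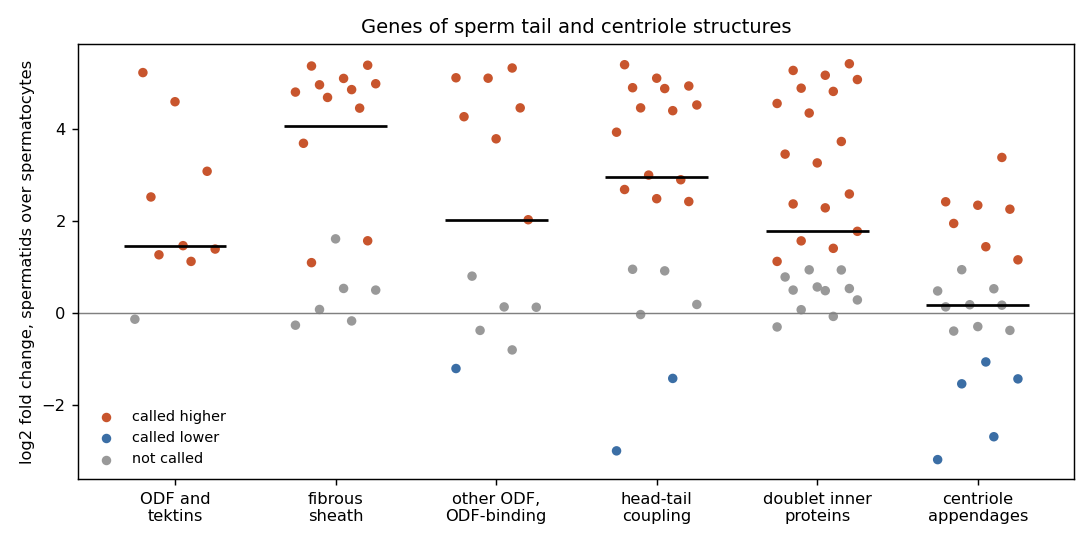
Log2 fold change, spermatids over spermatocytes, of each tested gene in 6 lists, with each point a gene, colour giving its call and a line at the median. The medians run from 0.18 for centriole appendages to 4.06 for the fibrous sheath, with the 9 outer dense fiber and tektin genes at 1.46.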

How the data were processed

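RNA sequencing of 4 spermatocyte and 4 spermatid libraries was used. The deposited signal holds read counts that the authors divided by each library's size factor. Per the submitters' processing notes, FastQC, Picard, SAMtools, STAR 2.4.0 and DESeq were used with the mm10 build, and the kit was stranded per the labels' protocols. The sources used here do not give the counting tool, its strand setting or its filters. Columns were assigned to libraries by title, and replicates numbered in record order. Another 8 per-sample columns of this table were left out.

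Whole reads were recovered from the step between values (100% of values above 0 lay within 0.1 of a whole read). Models reaching 10 normalized counts in 4 or more libraries were tested with limma 3.58.1 (trend, robust) in R 4.3.3 on log2(value + 1), a scale that understates folds of low genes, over all 8 libraries with no covariate. The script was tested on simulated data. Alternatives were pseudocounts, filters, scalings, a GC correction, edgeR 4.0.16 and DESeq2 1.42.0 on recovered reads, and libraries left out. Lengths, strands and GC content came from GENCODE M21 (mm10 coordinates), by symbol. Ratios and shares were tested with SciPy 1.17.1.

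The members, lists and alternatives were chosen with earlier results of these data known. Named genes were the members, the 2 called genes with the largest rise and the 2 with the largest fall in each list, the most similar gene to each member (no Gm, Rik, AC or AL model), and models overlapping a member. Odf2l, Calr3, Ldha, Ldhc and the cell type markers named fall outside this rule and were chosen after their values were seen. Insl3, Ttbk2 and 15 symbols of the doublet list had no match in the table by symbol or synonym and were not analysed under these symbols. Whether any of them names a gene that was analysed under another symbol was not checked.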

Additional observations from a re-analysis of the deposited data

How the results depend on the processing

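Odf1, Odf3, Tekt2 and Tekt4 were called higher in each of the 22 alternatives, with log2 fold changes of 4.11 to 4.77 for Odf1, 4.76 to 5.36 for Odf3, 2.55 to 3.21 for Tekt2 and 2.02 to 2.67 for Tekt4. Odf2 was called in 20 of them, Tekt1 in 17, Tekt3 in 21, Tekt5 in 20 and Odf4 in 0. With equal total reads 5 members were called higher (27.8% of all models), and with quantile normalization 5 (29.1%). The median over all models tested moved from -0.01 to -0.44 and -0.36 under these scalings. With the GC correction it moved from 0.25 to -0.26 over the 17045 genes with a GC value, 62.6% and 47.6% of all calls were then higher, and 6 members were called higher. The 29 differing ratios became 0 to 0 when any 1 library was left out, since 4 against 3 libraries allow no p below 0.0571. Counts of called list genes that moved by over 1.5 times were those of the ODF-binding list that fell, from 1 to 2 with equal total reads or quantile normalization, to 3 after the GC correction, and to 0 without spermatid library 2, spermatocyte library 3, spermatocyte library 4, or spermatocyte libraries 3 and 4, and of centriole appendage genes that rose, from 7 to 4 after the GC correction. Of the centriole appendage genes with a GC value, 6 were called higher without the correction, so on the same genes that count went from 6 to 4. For the doublet list under 80% of genes had a GC value, so the GC check of that list is void. The uncorrected fit over genes with a GC value and the merged exon lengths were chosen after seeing the data. No paired analysis was possible because the labels give the libraries no replicate numbers. Each member had at least 293 reads in each library.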

Other observations

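Genes with the profile most like each member were sought among 13009 other named genes with a mean of at least 100 normalized counts in 1 cell type, by the root mean square distance of mean-centred log2 levels over the 8 libraries. The nearest gene to Odf1 was Acsl1, a fatty acid activating enzyme (distance 0.0921, means of 2316 and 58641 in spermatocytes and spermatids). Odf2 was nearest to Xrra1 (0.0387, means of 21239 and 49142) and Odf3 to Galntl5, a glycosyltransferase-like gene of spermatids (0.0898, means of 1273 and 45405). Odf4, which did not pass the test, was nearest to Meaf6, a subunit of histone acetyltransferase complexes (0.0260, means of 6371 and 5713). The nearest genes to the tektins were Kpna2, an importin alpha, for Tekt1 (0.0628), BC051628 for Tekt2 (0.0571), Atoh8, a transcription factor, for Tekt3 (0.0635), Antxr2 for Tekt4 (0.122) and Mapre3, which binds microtubule ends, for Tekt5 (0.117). These distances are descriptions over 8 libraries that share their scaling.

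Odf3b, a relative of Odf3 in the ODF list, went from 94.3 ± 27.2 to 1267 ± 157 normalized counts (SD over 4 libraries each), or 3.78 ± 0.26 as a log2 fold change with its SE. Odf3l2 had means of 0.403 and 1.5 and was not tested. Both were chosen after their values were seen.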
